A study of Mus musculus with 21 samples.

Results

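The insulin-like growth factor (IGF) axis was followed through 7 groups of mouse fibroblast cultures with and without loss of Prrx1. The genes were taken by symbol, as the count tables list them in capitals: IGF1, IGF2, IGF1R, IGFBP2, IGFBP3, IGFBP4, IGFBP5, IGFBP6, IGFBP7 and PAPPA. All 10 had a row in each of the 3 tables, out of 24447 genes shared by the tables. They are written below with mouse symbols.

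Each group had 3 bulk RNA-seq cultures, 21 in all. Mouse embryonic fibroblasts (MEFs), taken between embryonic days 10 and 13, were wild type (WT), carriers of a Prrx1 mutant allele with LacZ inserted in the homeodomain of its second exon (129S-Prrx1tm1Jfm/Mmmh, on a C57BL6 background), or edited with CRISPR/Cas9 and a guide against Prrx1 (sgPrrx1). Fibroblasts from dorsal wounds of C57BL/6 mice, taken 10 days after wounding (wound fibroblasts) and cancer-associated fibroblasts from mammary tumours of MMTV-PyMT mice on FVB/NJ (MMTV-CAFs), in which the mouse mammary tumour virus promoter drives the polyoma middle T antigen, were each compared as WT and sgPrrx1. All lines had been immortalised with human papillomavirus E6 and E7, and the labels name sgNS cells as the WT control of the edited cells. Nothing in the labels gives the 3 replicates of a group as separate animals or independently edited lines, so the p-values measure only the spread between these cultures. Within a fibroblast type, Prrx1 state cannot be told apart from other differences between the lines. Loss of Prrx1 and the sgPrrx1 effect below therefore name differences between groups, whose cause was not tested. The Prrx1 mutant and sgPrrx1 MEFs were compared with the same 3 WT MEF cultures, so the pair of comparisons is not independent.

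Total counts ran from 69588655 to 134790440 per culture. Levels are in CPM, counts scaled to a common library size after normalisation by the trimmed mean of M values (TMM), and 3 counts were worth 0.0222 to 0.0444 CPM. Prrx1 itself was at 192, 166 and 184 CPM in WT MEFs, 26.1, 20.7 and 19.9 in Prrx1 mutant MEFs and 126, 94.9 and 140.5 in sgPrrx1 MEFs. In wound fibroblasts it was at 147 ± 4.68 CPM (SD, n = 3) in WT and 64.9 ± 0.578 in sgPrrx1 cultures, and in MMTV-CAFs at 632 ± 4.63 and 306 ± 4.39. It was lower in each Prrx1-loss group, with no overlap, and kept 12.3% of the WT level in mutant MEFs, 66.6% in sgPrrx1 MEFs, 44.1% in sgPrrx1 wound fibroblasts and 48.4% in sgPrrx1 MMTV-CAFs. Editing need not remove the transcript, so these levels do not measure the edited protein. All 8 fibroblast markers were counted in every group, but their summed level moved too, at 12205 to 12475 CPM in WT, 5595 to 6849 in mutant and 9589 to 11274 in sgPrrx1 MEFs, 8230 to 8378 and 3239 to 3255 in WT and sgPrrx1 wound fibroblasts, and 31716 to 32314 and 15763 to 15965 in WT and sgPrrx1 MMTV-CAFs. Collagens and Vim made up most of these sums. Every marker was lower in mutant than in WT MEFs, with Dcn at 48.8 CPM in WT and 0.142 in mutant cultures and Pdgfra at 142 and 19.2. In sgPrrx1 MEFs only Vim was higher than in WT. Every marker was lower in sgPrrx1 than in WT wound fibroblasts, with Col1a2 at 1873 CPM in WT and 107 in sgPrrx1 cultures and Thy1 at 49.8 and 2.88. In MMTV-CAFs single markers went either way, with Dcn at 32.4 CPM in WT and 588 in sgPrrx1 cultures, Pdgfra at 939 and 1835, and Thy1 at 57.3 and 0.641. The endothelial, epithelial, haematopoietic and skeletal muscle lists summed to at most 13.6 CPM in every culture, apart from the endothelial list in wound fibroblasts, where Kdr alone gave 290.3 CPM in WT and 142 in sgPrrx1 cultures while Pecam1 was at 0. The adipocyte list summed to 3.11 to 4.07 CPM in WT and 21.3 to 22.8 in mutant MEFs, most of it Pparg. In MMTV-CAFs it summed to 19.8 to 20.2 CPM in WT and 185 to 192 with sgPrrx1, the latter nearly all Fabp4. Pparg went the other way there, from 1348, 1475 and 1811 counts in WT to 203, 202 and 154 with sgPrrx1. Plin1 was at 0 in sgPrrx1 MMTV-CAFs and Adipoq at 0 in WT MMTV-CAFs. The part of these marker differences in the results below was not tested, and in bulk RNA fewer cells of a type and less RNA per cell cannot be told apart.

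IGF1 and IGF2 are small secreted growth factors that signal through the receptor tyrosine kinase IGF1R to promote growth and survival, and mesenchymal cells are a local source of both. The binding proteins hold the ligands outside the cell, extend their lifetime and limit their access to the receptor. The metalloproteinase PAPPA cleaves IGFBP4, and also IGFBP5 and IGFBP2, and so frees the ligand, while the stanniocalcins STC1 and STC2 inhibit PAPPA. IGFBP7 is the outlying member of the set, with low affinity for the ligands.

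Gene positions are from RefSeq on GRCm38, the build of the deposited alignments (mm10). The ligand genes are Igf1 (chr10:87858265-87937047) and Igf2 (chr7:142650768-142666816), and the receptor gene is Igf1r (chr7:67952257-68233668). Igfbp2 (chr1:72824480-72852474) and Igfbp5 (chr1:72858065-72874865) lie tail to tail, 5.59 kb apart. Igfbp3 (chr11:7206086-7215498) lies 3.54 kb from Igfbp1, and Igfbp4 (chr11:99040005-99052655) is on the same chromosome. Igfbp6 (chr15:102144186-102149512), Igfbp7 (chr5:77349240-77408045) and Pappa (chr4:65124174-65357509) stand alone.

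RefSeq start sites gave 13 promoter windows for 9 of the 10 genes, all but Pappa. The 250 bases before a start site are printed 5′ to 3′, in the sense of the gene. Igf1 (plus strand, chr10:87860861-87861110) is shown as the ligand that was lower in every Prrx1-loss group. Igfbp4 (plus strand, chr11:99040994-99041243) and Igfbp6 (plus strand, chr15:102143936-102144185) are shown as the binding-protein genes whose windows matched TATAAA. The windows of Igf1 and Igfbp4 lie inside the gene spans given above, so they do not precede the outermost start of the gene. Capitals mark the letters TATAAA, the sequence of the TATA box, on either strand, and do not show that a box is used there.
Igf1: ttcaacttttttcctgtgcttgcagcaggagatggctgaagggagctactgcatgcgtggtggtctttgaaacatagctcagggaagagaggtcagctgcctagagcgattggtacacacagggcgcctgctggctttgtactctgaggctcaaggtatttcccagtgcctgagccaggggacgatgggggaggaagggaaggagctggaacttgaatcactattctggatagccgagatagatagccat
Igfbp4: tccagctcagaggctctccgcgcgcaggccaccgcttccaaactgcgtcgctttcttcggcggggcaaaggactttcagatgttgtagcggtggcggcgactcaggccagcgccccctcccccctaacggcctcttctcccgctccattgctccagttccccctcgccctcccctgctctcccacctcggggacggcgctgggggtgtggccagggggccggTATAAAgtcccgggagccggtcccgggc
Igfbp6: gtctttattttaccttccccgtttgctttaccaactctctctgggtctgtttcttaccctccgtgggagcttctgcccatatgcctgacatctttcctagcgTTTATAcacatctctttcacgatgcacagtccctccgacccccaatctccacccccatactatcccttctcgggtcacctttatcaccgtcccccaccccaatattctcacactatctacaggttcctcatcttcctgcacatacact
The motif begins 28 bases before this start site of Igfbp4 and 148 before that of Igfbp6, where it reads on the minus strand. The transcribed end of the Igfbp6 window was not found in a transcript of the gene, unlike those of Igf1 and Igfbp4. These were the only matches to TATAAA among the 13 windows, against 12.4% of 32851 mouse promoter windows of the same length. The homeodomain core TAATTA, searched because PRRX1 is a homeodomain protein, was in 0 of the 13 windows and in 4.84% of all windows. The AP-1 motif TGAGTCA (both strands) was in 1 of 13, a window of Igfbp2, and in 4.46% of all. No match says only that these letters are not in these windows.

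More of these genes were lower than higher in each Prrx1-loss group against its WT, and the ligand gene Igf1 and the binding-protein gene Igfbp5 were lower in all 4. Igfbp2 was at most 19 counts in any culture and was left out of these fits by the filter on low counts, so 9 of 10 members were tested. In mutant MEFs 7 were lower and 1 higher at an adjusted p under 0.05 (edgeR quasi-likelihood test, Benjamini-Hochberg over all genes tested), where 30.5% of all genes were lower and 29.4% higher. In sgPrrx1 MEFs 4 were lower and 2 higher, with 22.8% and 20.3% of all genes. In sgPrrx1 wound fibroblasts 6 were lower and 2 higher, with 39.3% and 38.3%. In sgPrrx1 MMTV-CAFs 7 were lower and 2 higher, with 41.9% and 41.2%. So many genes passed in every comparison that the size of the change separates the members better. Changes of at least 2-fold were found for 5 lower and 1 higher member in mutant MEFs (14.5% and 9.64% of all genes), 4 and 1 in sgPrrx1 MEFs (8.97% and 1.58%), 4 and 1 in sgPrrx1 wound fibroblasts (7.06% and 8.57%) and 6 and 1 in sgPrrx1 MMTV-CAFs (12.8% and 11.5%). The median size of the log2 change over the 9 members was 2.68 in mutant MEFs, 1.07 in sgPrrx1 MEFs, 1.09 in sgPrrx1 wound fibroblasts and 3.19 in sgPrrx1 MMTV-CAFs, beside 0.52, 0.32, 0.37 and 0.49 over all genes.

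**Figure D1:**
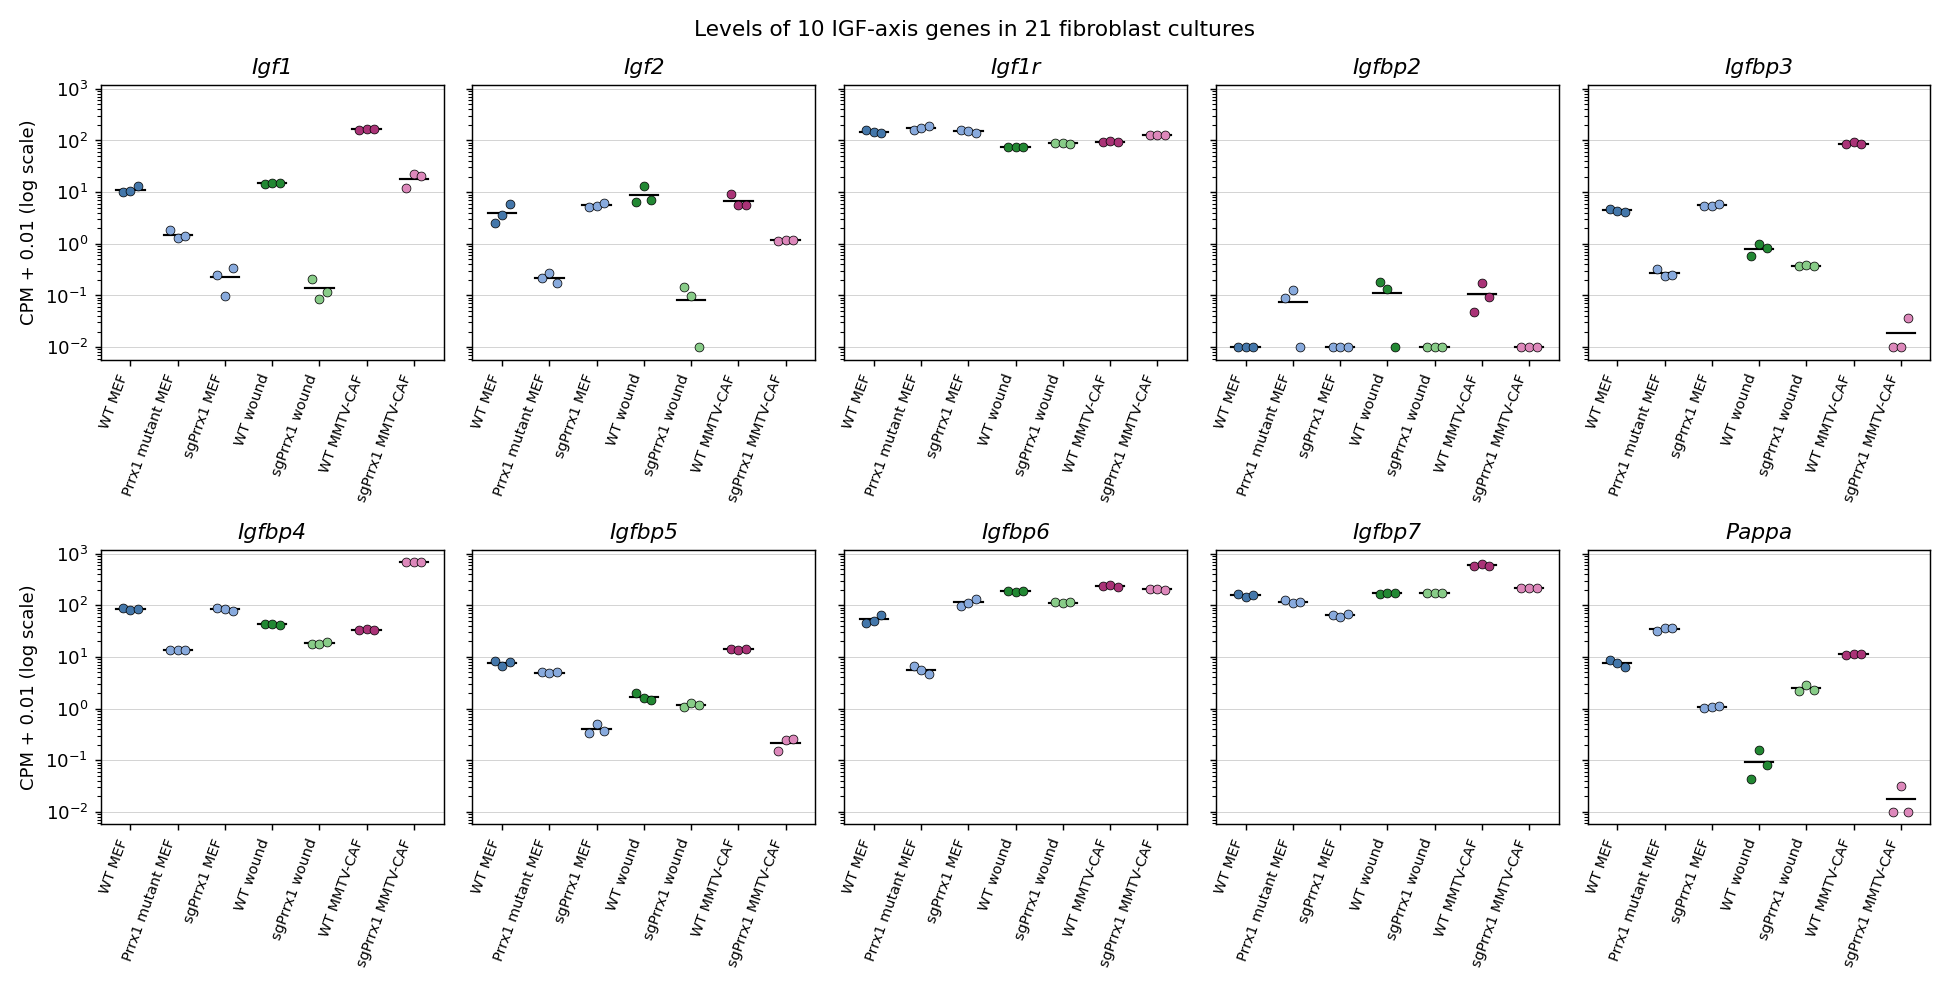
Level of each gene in the 21 cultures, as CPM plus 0.01 on a log axis; each point is a culture, each bar the mean of 3, and a point at 0.01 is a culture with 0 counts. Igf1 sits lower in every Prrx1-loss group than in its WT, and Igfbp3 and Pappa fall to 3 counts in all in sgPrrx1 MMTV-CAFs. Igf1r moves by at most 1.35-fold against its WT and differs more between fibroblast types, with the MEF groups highest.

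Igf1 fell in all 4 comparisons. WT MEFs held 9.86, 10.7 and 13.0 CPM, Prrx1 mutant MEFs 1.84, 1.27 and 1.38 and sgPrrx1 MEFs 0.237, 0.0886 and 0.335. All 6 Prrx1-loss MEF cultures were below the lowest WT culture, and the mutant and edited cultures did not overlap either. The mean fell to 13.4% of WT in mutant MEFs (log2 fold change -2.92 ± 0.20, adjusted p = 3.10e-05 by edgeR) and to 1.97% in sgPrrx1 MEFs (-5.65 ± 0.34, adjusted p = 4.93e-05). Here and below, ± after a log2 value is a standard error worked back from the edgeR test. It is the size of the change over the square root of the F statistic, and can understate counting error where a group has few counts.

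In wound fibroblasts Igf1 was at 14.5, 15.3 and 15.1 CPM in WT and 0.201, 0.0751 and 0.107 in sgPrrx1 cultures, the latter from 18, 7 and 8 counts. That was 0.854% of the WT mean, a log2 fold change of -6.86 ± 0.16 (adjusted p = 2.61e-09, edgeR). The highest Igf1 levels of the series were in WT MMTV-CAFs, at 163, 164 and 168 CPM. With sgPrrx1 they were 11.8, 22.4 and 20.9 CPM, so the first edited culture was lower than the other two but all 3 were far below WT. The fall to 11.1% (log2 fold change -3.19 ± 0.22, adjusted p = 2.69e-06) still left sgPrrx1 MMTV-CAFs overlapping WT wound fibroblasts in Igf1 level.

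Igf2, the other ligand gene, fell in 3 of the 4 comparisons. It was at 2.52, 3.57 and 5.78 CPM in WT MEFs and 0.206, 0.260 and 0.161 in mutant MEFs, with no overlap (log2 fold change -4.24 ± 0.39, adjusted p = 1.22e-04, edgeR). In sgPrrx1 MEFs it was at 5.21, 5.47 and 6.02 CPM, overlapping the WT cultures, with a log2 difference of 0.47 ± 0.28 that did not pass (adjusted p = 0.207). Without the third WT MEF culture, the highest of the 3, the difference was 0.85 with an adjusted p of 0.0116, where other settings gave up to 0.431.

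WT wound fibroblasts had 6.29, 12.9 and 6.97 CPM of Igf2, the second culture standing above the other pair. The sgPrrx1 wound cultures had 0.134, 0.0859 and 0 CPM from 12, 8 and 0 counts, which was 0.843% of WT (log2 fold change -6.79 ± 0.52, adjusted p = 3.20e-06). In MMTV-CAFs Igf2 was at 9.09, 5.54 and 5.50 CPM in WT and 1.10, 1.18 and 1.197 with sgPrrx1, 17.3% of WT (log2 fold change -2.55 ± 0.22, adjusted p = 1.04e-05). The noncoding RNA H19, the imprinted neighbour 72.6 kb from Igf2, was at 6335, 5978 and 6954 counts in WT MEFs, 96, 163 and 61 in mutant MEFs and 7982, 7257 and 8056 in sgPrrx1 MEFs, so it too was low in mutant MEFs and not in edited MEFs.

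Per kilobase of exon, the scale on which genes can be compared, WT MMTV-CAFs carried 17.9 ± 0.31 CPM per kb of both ligands together (SD, n = 3), of which Igf1 was 93.2%. WT MEFs carried 1.85 ± 0.47 and WT wound fibroblasts 3.09 ± 0.69 CPM per kb, with Igf1 at 62.1% and 50.1%. After loss of Prrx1 the sum was 0.19 ± 0.03 in mutant MEFs, 1.04 ± 0.08 in sgPrrx1 MEFs, 0.026 ± 0.017 in sgPrrx1 wound fibroblasts and 2.06 ± 0.59 in sgPrrx1 MMTV-CAFs. In sgPrrx1 MEFs the ligand transcript was almost all Igf2, with Igf1 at 2.11% of the sum.

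The receptor gene Igf1r changed by at most 0.42 on the log2 scale in any of the 4 comparisons. It was at 149 ± 11.6 CPM in WT, 174 ± 13.5 in mutant and 151 ± 7.88 in sgPrrx1 MEFs (SD, n = 3), and neither Prrx1-loss group was apart from WT. The log2 differences were 0.20 ± 0.09 (adjusted p = 0.102, edgeR) and 0.01 ± 0.08 (adjusted p = 0.945); the latter changed sign with upper-quartile scaling, and the former passed in the model of all 21 cultures (adjusted p from 0.00233 there to 0.245 over the other settings). In wound fibroblasts Igf1r rose from 74.7, 74.6 and 75.6 to 89.0, 88.7 and 87.3 CPM (log2 fold change 0.23 ± 0.02, adjusted p = 7.78e-06). In MMTV-CAFs it rose from 95.4, 96.1 and 91.5 to 127, 129 and 126 CPM (log2 fold change 0.42 ± 0.03, adjusted p = 1.17e-06). Both rises were without overlap and small, 1.18-fold and 1.35-fold.

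**Figure D2:**
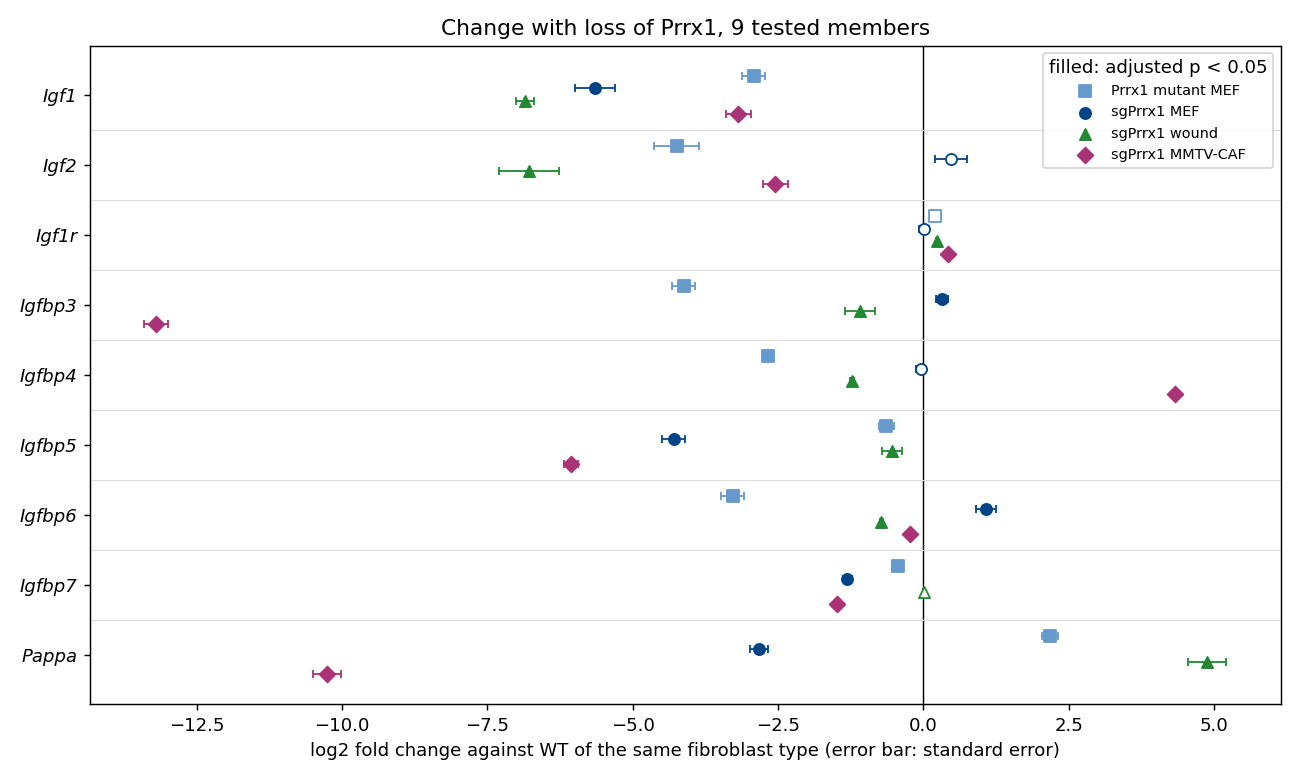
log2 fold change of the 9 tested genes in each Prrx1-loss group against WT of the same fibroblast type. Error bars are standard errors worked back from the F test, and filled symbols passed an adjusted p of 0.05. Igf1 and Igfbp5 lie left of 0 in all 4 comparisons, while Igfbp3, Igfbp4, Igfbp6 and Pappa have filled symbols on both sides.

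Igfbp4, which encodes the binding protein that PAPPA cleaves, moved in opposite directions. It was at 89.8, 82.2 and 86.0 CPM in WT MEFs and 13.8, 13.4 and 13.7 in mutant MEFs, 15.9% of WT (log2 fold change -2.68 ± 0.08, adjusted p = 1.80e-06, edgeR). The sgPrrx1 MEFs, at 87.5, 85.1 and 78.7 CPM, overlapped WT, with a log2 difference of -0.05 ± 0.07 (adjusted p = 0.593). So the mutant and edited MEFs stood far apart in this gene.

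In wound fibroblasts Igfbp4 fell from 43.5, 42.6 and 41.6 to 17.6, 17.99 and 19.1 CPM (log2 fold change -1.23 ± 0.04, adjusted p = 1.21e-08). In MMTV-CAFs it rose from 33.0, 34.1 and 33.4 to 678, 681 and 679 CPM, a 20.3-fold increase (log2 fold change 4.32 ± 0.02, adjusted p = 9.29e-12). The 3 edited MMTV-CAF cultures lay close together and far above every other group. Per kilobase, Igfbp4 became the highest member of that group (288 ± 0.800 CPM per kb), ahead of Igfbp6 (182 ± 3.50), whereas in WT MMTV-CAFs it stood at 14.2 ± 0.225.

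Igfbp6, whose protein prefers IGF2 over IGF1, fell in mutant MEFs and rose in edited MEFs. WT MEFs had 45.5, 50.0 and 65.6 CPM, mutant MEFs 6.62, 5.56 and 4.56 and sgPrrx1 MEFs 95.9, 112 and 133. All 3 mutant cultures were below and all 3 edited cultures above WT (log2 fold changes -3.29 ± 0.20 with adjusted p = 2.08e-05 and 1.07 ± 0.17 with adjusted p = 0.00288, edgeR). In wound fibroblasts it fell from 186 ± 2.92 to 113 ± 0.265 CPM (SD, n = 3; log2 fold change -0.72 ± 0.02, adjusted p = 5.30e-09). In MMTV-CAFs it was at 234, 245 and 226 CPM in WT and 207, 202 and 199 with sgPrrx1, a log2 fold change of -0.23 ± 0.03 (adjusted p = 2.60e-04) that did not pass in the model of all 21 cultures, whose adjusted p of 0.15 was the highest of the settings tried.

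Igfbp7 was the most abundant binding-protein transcript per kilobase in WT MEFs and WT MMTV-CAFs. It fell from 166, 147 and 160.3 CPM in WT MEFs to 128, 110.0 and 116 in mutant and 65.2, 59.9 and 66.9 in sgPrrx1 MEFs, with no overlap among the 3 groups. These were log2 fold changes of -0.44 ± 0.09 (adjusted p = 0.00603, edgeR) and -1.32 ± 0.08 (adjusted p = 4.56e-05). In MMTV-CAFs it fell from 574, 625 and 585 to 218, 217 and 212 CPM (log2 fold change -1.48 ± 0.03, adjusted p = 4.66e-09). The wound groups overlapped, at 170.0 ± 1.90 and 172 ± 1.40 CPM, with a log2 difference of 0.01 ± 0.02 (adjusted p = 0.624) whose sign changed with upper-quartile scaling.

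Igfbp3, whose protein carries most circulating IGF, showed the steepest fall of the set. WT MMTV-CAFs held 86.0, 92.0 and 84.0 CPM, from 9206, 10555 and 11132 counts, and the sgPrrx1 MMTV-CAFs had 0, 0 and 3 counts. The edited cultures therefore kept 0.00956% of the WT level, with an exact 95% interval of 0.00197% to 0.0279% that covers counting error only (adjusted p = 6.24e-10, edgeR). In mutant MEFs Igfbp3 was at 0.310, 0.224 and 0.235 CPM against 4.67, 4.38 and 4.21 in WT (log2 fold change -4.12 ± 0.20, adjusted p = 7.84e-06).

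In sgPrrx1 MEFs Igfbp3 was at 5.35, 5.35 and 5.98 CPM, all 3 above WT, with a log2 difference of 0.32 ± 0.11 that only just passed (adjusted p = 0.0492) and did not pass when any of the 6 cultures was left out (adjusted p from 0.0629 to 0.129) or in the model of all 21 cultures (adjusted p = 0.0525). Wound fibroblasts had little of it, 0.580, 0.964 and 0.810 CPM in WT and 0.358, 0.386 and 0.359 with sgPrrx1. That was 46.9% of WT (log2 fold change -1.09 ± 0.26, adjusted p = 0.00425).

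Igfbp5, whose protein binds extracellular matrix, was lower in each Prrx1-loss group and by very different amounts. In MEFs it was at 8.35, 6.51 and 8.03 CPM in WT, 5.12, 4.80 and 4.99 in mutant and 0.325, 0.487 and 0.361 in sgPrrx1 cultures, so the edited cultures were lower still than the mutant ones. The log2 fold changes against WT were -0.64 ± 0.13 (adjusted p = 0.00499, edgeR) and -4.29 ± 0.20 (adjusted p = 1.92e-05). In MMTV-CAFs it went from 14.0, 13.6 and 14.5 to 0.142, 0.236 and 0.250 CPM, 1.49% of WT (log2 fold change -6.07 ± 0.12, adjusted p = 2.25e-09). The difference in wound fibroblasts was small, 2.01, 1.61 and 1.48 CPM against 1.08, 1.26 and 1.17 (log2 fold change -0.54 ± 0.17, adjusted p = 0.0153). It did not pass without the first WT wound culture (adjusted p = 0.0629) or without the first edited one (adjusted p = 0.0557).

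Igfbp2, beside Igfbp5 on chromosome 1, was barely counted. It had 16, 10 and 0 counts in WT wound fibroblasts, 4, 19 and 11 in WT MMTV-CAFs and 6, 10 and 0 in mutant MEFs, and 0 in all cultures of the other 4 groups. With the edited group set at a floor of 3 counts, it would be 8.64-fold lower in sgPrrx1 than in WT wound fibroblasts. On the same floor it would be 11.5-fold lower in sgPrrx1 than in WT MMTV-CAFs. These ratios carry no counting error of the WT side, and the differences were not tested. A WT wound culture also had 0 counts, so the wound groups overlapped.

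Pappa, the protease gene, changed strongly everywhere but not in one direction. In MEFs it was at 8.77, 7.75 and 6.36 CPM in WT, 32.1, 36.4 and 36.9 in mutant and 1.04, 1.06 and 1.13 in sgPrrx1 cultures. It rose 4.61-fold in mutant MEFs (log2 fold change 2.18 ± 0.14, adjusted p = 2.53e-05, edgeR) and fell to 14.1% of WT in edited MEFs (-2.83 ± 0.16, adjusted p = 3.74e-05). The mutant and edited cultures lay on either side of the WT cultures with no overlap.

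Pappa was near its floor in WT wound fibroblasts, with 3, 12 and 6 counts, and rose to 198, 260 and 174 counts with sgPrrx1, or 2.21, 2.79 and 2.32 CPM (log2 fold change 4.88 ± 0.33, adjusted p = 1.55e-06). In MMTV-CAFs the order was the reverse, 1189, 1323 and 1533 counts in WT and 0, 3 and 0 with sgPrrx1. The edited MMTV-CAFs kept 0.0730% of the WT level (exact 95% interval 0.0150% to 0.213%, counting error only, adjusted p = 5.35e-09). The same edited cultures had the highest Igfbp4, the main substrate of the protease.

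Summed over the 6 binding-protein genes, the transcript per kilobase fell from 217 ± 13.4 CPM per kb (SD, n = 3) in WT MEFs to 109 ± 8.19 in mutant MEFs, and was 192 ± 16.02 in sgPrrx1 MEFs. It was 326 ± 1.36 in WT and 251 ± 1.38 in sgPrrx1 wound fibroblasts, and 746 ± 30.9 in WT and 648 ± 5.58 in sgPrrx1 MMTV-CAFs. Its make-up differed between the groups as well. Igfbp7 was 59.8% ± 2.58 of the sum in WT MEFs and 89.2% ± 0.58 in mutant MEFs, while in sgPrrx1 MEFs Igfbp6 led with 53.0% ± 4.41. In MMTV-CAFs Igfbp4 went from 1.90% ± 0.05 to 44.4% ± 0.42 and Igfbp7 from 65.7% ± 0.56 to 27.4% ± 0.15, with Igfbp6 at 28.3% ± 0.52 and 28.1% ± 0.32. In wound fibroblasts Igfbp6 went from 51.3% ± 0.62 to 40.4% ± 0.13 and Igfbp7 from 43.0% ± 0.64 to 56.4% ± 0.19. The ratio of summed binding protein to summed ligand, both per kilobase, was 122 ± 26.7 in WT and 580.2 ± 51.3 in mutant MEFs, 186 ± 1.75 in sgPrrx1 MEFs, and 41.8 ± 2.47 in WT against 336 ± 117 in sgPrrx1 MMTV-CAFs. In wound fibroblasts it was 109 ± 22.0 in WT and between 5636 and 23455 with sgPrrx1, where the ligand counts were close to 0.

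**Figure D3:**
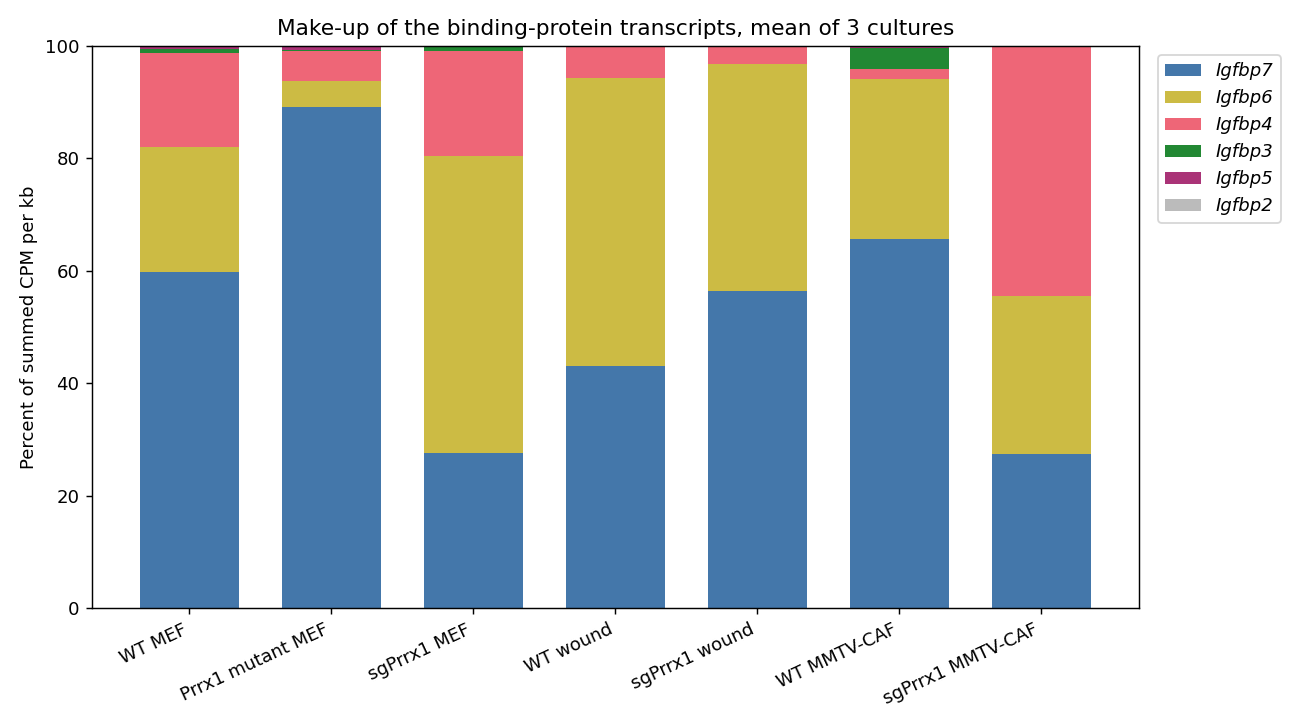
Share of each binding-protein gene in the summed CPM per kb of the 6 genes, mean of 3 cultures per group. Igfbp7 fills 89.2% of the bar of Prrx1 mutant MEFs, and Igfbp4 grows from 1.90% to 44.4% between WT and sgPrrx1 MMTV-CAFs.

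The germline mutant and the edited MEFs, which shared their WT cultures, were compared directly. Of 9 members tested, 4 were lower and 4 higher in sgPrrx1 than in mutant MEFs, where 28.4% and 27.8% of all genes were; at 2-fold or more the numbers were 3 and 4, against 10.6% of all genes in each direction. The edited MEFs had more Igf2 (log2 difference 4.71 ± 0.18, adjusted p = 5.38e-06, edgeR), Igfbp3 (4.44 ± 0.16, adjusted p = 4.56e-06), Igfbp6 (4.35 ± 0.19, adjusted p = 8.92e-06) and Igfbp4 (2.63 ± 0.07, adjusted p = 2.32e-06). They had less Pappa (-5.02 ± 0.10, adjusted p = 1.08e-06), Igfbp5 (-3.66 ± 0.17, adjusted p = 1.03e-05), Igf1 (-2.74 ± 0.41, adjusted p = 0.00161) and Igfbp7 (-0.87 ± 0.08, adjusted p = 2.06e-04). Igf1r did not pass (-0.19 ± 0.08, adjusted p = 0.0709), although its cultures did not overlap and it passed in the model of all 21 cultures (adjusted p from 0.00540 there to 0.229 over the other settings). Prrx1 transcript itself was higher in the edited MEFs (log2 difference 2.44 ± 0.18, adjusted p = 6.79e-05).

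Among WT cultures the axis already differed by fibroblast type, a comparison in which type, strain and line cannot be told apart. In one model of all 21 cultures, which kept all 10 members, 8 differed between WT wound fibroblasts and WT MEFs (77.4% of all genes did), all 10 between WT MMTV-CAFs and WT MEFs (76.1%) and 8 between WT MMTV-CAFs and WT wound fibroblasts (76.8%). With a culture left out, the second of these comparisons gave 8 to 9 members. The calls for Igfbp2 rest on MEFs with 0 counts and did not pass when any of several single cultures was left out. Igf2 between WT MMTV-CAFs and WT MEFs (0.75 ± 0.32, adjusted p = 0.0410) did not pass without the first WT MEF culture (adjusted p = 0.205), the second (0.126) or the first WT MMTV-CAF culture (0.220), nor with upper-quartile scaling (0.0626). Igfbp6 between WT MMTV-CAFs and WT wound fibroblasts (0.34 ± 0.13, adjusted p = 0.0219) did not pass with upper-quartile scaling (adjusted p = 0.140) or without the second WT MMTV-CAF culture (0.0652), the first WT wound culture (0.0777) or the second (0.101). WT MMTV-CAFs had more Igf1 than WT MEFs (log2 difference 3.88 ± 0.22, adjusted p = 2.79e-11, edgeR), more Igfbp3 (4.31 ± 0.15, adjusted p = 2.19e-14), more Igfbp7 (1.92 ± 0.06, adjusted p = 4.36e-15) and less Igfbp4 (-1.36 ± 0.05, adjusted p = 1.48e-14). WT wound fibroblasts had more Igfbp6 than WT MEFs (1.79 ± 0.13, adjusted p = 6.50e-10) and less Pappa (-6.52 ± 0.27, adjusted p = 2.45e-13), Igfbp3 (-2.50 ± 0.16, adjusted p = 1.29e-10) and Igfbp5 (-2.16 ± 0.14, adjusted p = 1.97e-10). Igf1 and Igfbp7 did not pass between them (log2 difference 0.42 ± 0.20 with adjusted p = 0.0725, and 0.11 ± 0.06 with adjusted p = 0.0936). With upper-quartile scaling both did (adjusted p = 0.0402 and 0.0129, edgeR), and Igfbp7 also by DESeq2 (adjusted p = 0.0477). Igf1 passed without the third WT MEF culture (0.0401) and Igfbp7 without the first (0.0190), both by edgeR. Between MMTV-CAFs and wound fibroblasts the widest gaps were in Pappa (7.11 ± 0.26, adjusted p = 4.46e-14) and Igfbp3 (6.80 ± 0.17, adjusted p = 2.81e-16), and Igf2 did not pass (-0.38 ± 0.31, adjusted p = 0.281).

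The order of the 7 groups differed from gene to gene. Igf1 ran from WT MMTV-CAFs at the top through sgPrrx1 MMTV-CAFs and WT wound fibroblasts, which overlapped, to sgPrrx1 MEFs and sgPrrx1 wound fibroblasts at the bottom, which overlapped as well. For Igf2 the upper 4 groups (WT wound fibroblasts, WT MMTV-CAFs, sgPrrx1 MEFs and WT MEFs) each overlapped the next, and the lower 3 stood apart. For Igfbp4 only WT and sgPrrx1 MEFs overlapped. Igf1r was highest in the 3 MEF groups and lowest in the pair of wound groups, whatever the Prrx1 state.

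Whether the sgPrrx1 effect itself differed by fibroblast type was tested as an interaction in the 21-culture model. It differed for 8 of 10 members between wound fibroblasts and MEFs (55.6% of all genes), for 8 between MMTV-CAFs and MEFs (56.1%) and for 9 between MMTV-CAFs and wound fibroblasts (63.0%). The call for Igf1r was lost in 9 of 12 fits with a culture left out, both for wound fibroblasts against MEFs and for MMTV-CAFs against wound fibroblasts. For Igfbp4 the effect in MMTV-CAFs exceeded that in MEFs by 4.38 ± 0.07 on the log2 scale (adjusted p = 7.78e-19, edgeR) and that in wound fibroblasts by 5.57 ± 0.07 (adjusted p = 1.68e-19). For Igf1 the wound and MEF effects did not differ detectably (-1.22 ± 0.59, adjusted p = 0.0884, and from 0.0119 by DESeq2 to 0.366 over the other settings), while the MMTV-CAF effect was smaller than both (by 2.46 ± 0.40, adjusted p = 4.65e-05, and 3.69 ± 0.42, adjusted p = 5.10e-07). Igfbp6 went from a rise in MEFs to a fall in wound fibroblasts, a difference of -1.80 ± 0.18 (adjusted p = 1.90e-07). The effect on Pappa differed between every pair of types, with the rise in wound fibroblasts standing 7.70 ± 0.34 above the fall in MEFs (adjusted p = 4.12e-12).

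Outside the 10 genes, a list of 32 others of the pathway was examined, with 27 tested in both MEF comparisons and in wound fibroblasts and 28 in MMTV-CAFs. In mutant MEFs 11 were lower and 6 higher, where 30.5% and 29.4% of all genes were. In sgPrrx1 MEFs the numbers were 7 and 9 (22.8% and 20.3% of all genes), in sgPrrx1 wound fibroblasts 6 and 18 (39.3% and 38.3%), and in sgPrrx1 MMTV-CAFs 12 and 16 (41.9% and 41.2%). The median log2 changes of the list were -0.00127, 0.12, 0.17 and 0.44, the first being the value of Insr. At 2-fold or more, 5 were lower and 0 higher in mutant MEFs (14.5% and 9.64% of all genes) and 2 and 2 in sgPrrx1 MEFs (8.97% and 1.58%). The numbers were 2 and 2 in sgPrrx1 wound fibroblasts (7.06% and 8.57%) and 7 and 10 in sgPrrx1 MMTV-CAFs (12.8% and 11.5%). Changes of at least 2-fold in 2 or more of the 4 comparisons were found for Stc1, Pappa2, Htra1, Grb14 and H19. The share of all genes that met this last rule was not counted.

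The PAPPA inhibitors moved by type. Stc1 fell in mutant and sgPrrx1 MEFs (log2 fold changes -3.63 ± 0.44, adjusted p = 4.49e-04, and -6.43 ± 0.62, adjusted p = 3.77e-04, edgeR, the latter from 0, 0 and 5 counts) and rose in sgPrrx1 wound fibroblasts and MMTV-CAFs (2.28 ± 0.27, adjusted p = 5.49e-05, and 3.24 ± 0.04, adjusted p = 1.65e-10). Stc2 rose in mutant and sgPrrx1 MEFs (0.94 ± 0.12, adjusted p = 5.21e-04, and 0.61 ± 0.11, adjusted p = 0.00520) and in sgPrrx1 MMTV-CAFs (2.55 ± 0.06, adjusted p = 7.23e-09), and fell in sgPrrx1 wound fibroblasts (-0.47 ± 0.06, adjusted p = 1.27e-04). So sgPrrx1 MMTV-CAFs, where Pappa was almost uncounted, had 36.8 CPM of Stc1 and 36.7 of Stc2, against 3.84 and 6.20 in WT. Pappa2, the related protease gene, had group means of at most 3.67 CPM, fell in both kinds of Prrx1-loss MEF (-2.81 ± 0.39, adjusted p = 8.47e-04, and -2.86 ± 0.26, adjusted p = 2.70e-04), rose in sgPrrx1 MMTV-CAFs (1.54 ± 0.16, adjusted p = 3.23e-05) and did not pass in wound fibroblasts (-0.45 ± 0.52, adjusted p = 0.448). Htra1, a secreted serine protease, was lower in mutant MEFs (-1.29 ± 0.11, adjusted p = 1.04e-04) and sgPrrx1 wound fibroblasts (-2.38 ± 0.02, adjusted p = 3.71e-11) and higher in sgPrrx1 MMTV-CAFs (1.33 ± 0.02, adjusted p = 7.03e-10) and, by less than 2-fold, in sgPrrx1 MEFs (0.76 ± 0.09, adjusted p = 0.00102).

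Among the receptor relatives, Igf2r, which clears IGF2, fell in mutant MEFs (-0.93 ± 0.11, adjusted p = 4.94e-04, edgeR), sgPrrx1 MEFs (-0.39 ± 0.09, adjusted p = 0.0109) and sgPrrx1 MMTV-CAFs (-0.50 ± 0.02, adjusted p = 1.13e-07) and was slightly higher in sgPrrx1 wound fibroblasts (0.10 ± 0.03, adjusted p = 0.0126). The insulin receptor gene Insr rose in sgPrrx1 MMTV-CAFs (0.47 ± 0.03, adjusted p = 4.02e-06). In the other 3 comparisons its log2 differences of -0.00127, 0.10 and 0.17 did not pass. The adaptor gene Grb14 fell in mutant MEFs (-1.16 ± 0.13, adjusted p = 2.92e-04) and sgPrrx1 MMTV-CAFs (-1.66 ± 0.02, adjusted p = 4.67e-10) and rose in sgPrrx1 MEFs (1.24 ± 0.08, adjusted p = 6.28e-05). H19 fell in mutant MEFs (-6.00 ± 0.28, adjusted p = 6.87e-06), and was at most 41 counts in the wound and MMTV-CAF cultures. It had 35, 41 and 35 counts in WT and 9, 16 and 0 in sgPrrx1 wound fibroblasts. In MMTV-CAFs it had 28, 11 and 14 counts in WT and 0 in each sgPrrx1 culture.

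The growth hormone receptor gene Ghr, the orphan insulin receptor relative Insrr and Grb10 were singled out after their values were seen. Ghr fell in sgPrrx1 MMTV-CAFs, from 16153, 16659 and 20665 counts in WT to 4169, 9817 and 4302, the second edited culture standing above the other pair (log2 fold change -1.63 ± 0.24, adjusted p = 3.32e-04, edgeR). It also fell in mutant (-0.73 ± 0.24, adjusted p = 0.0350) and sgPrrx1 MEFs (-0.71 ± 0.13, adjusted p = 0.00490) and rose in sgPrrx1 wound fibroblasts (0.27 ± 0.03, adjusted p = 2.20e-05). Insrr had 105, 111 and 96 counts in sgPrrx1 MMTV-CAFs and 0 in every other culture. With WT MMTV-CAFs set at a floor of 3 counts over the group, it would be 102-fold higher. Grb10, an imprinted adaptor that restrains the insulin and IGF1 receptors, was at 0 counts in all 3 sgPrrx1 MMTV-CAF cultures. It was at 21259, 22541 and 27090 counts in WT. With the edited group set at a floor of 3 counts, Grb10 would be 24011-fold lower. In the other groups it stayed between 152.8 and 379.6 CPM on average.

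**Figure D4:**
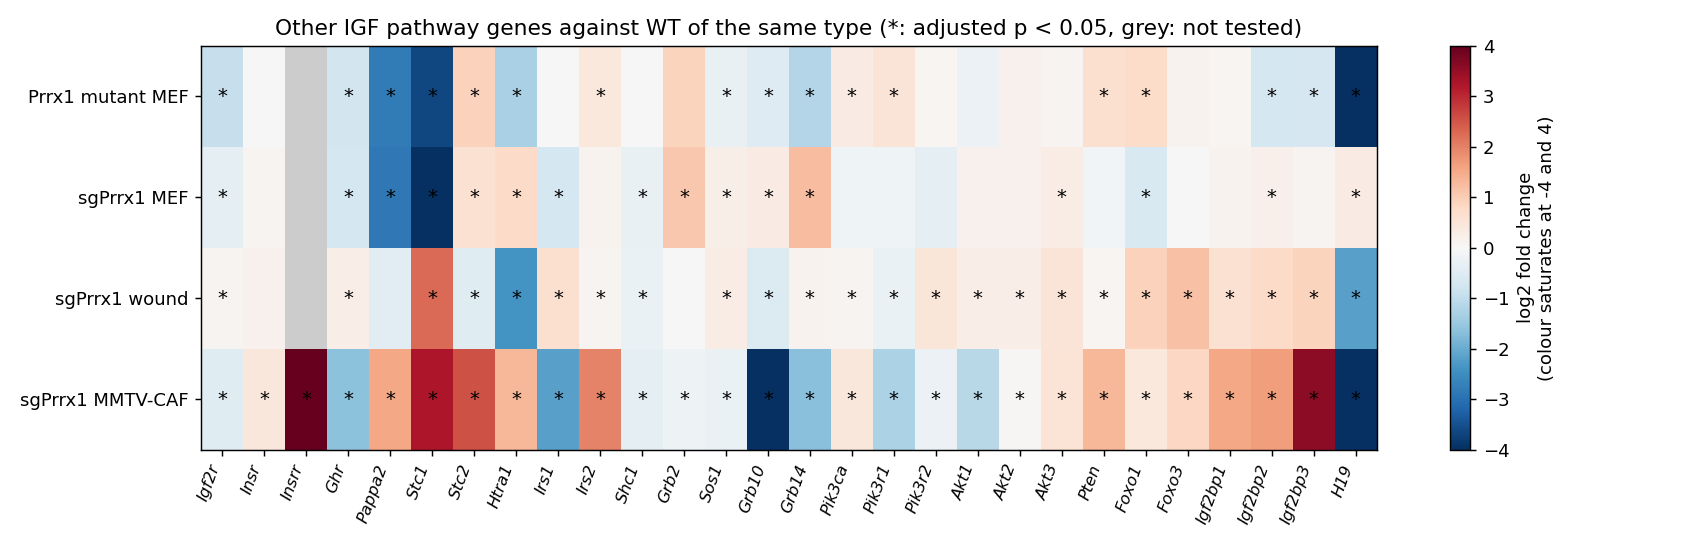
log2 fold change of the pathway genes tested in at least one of the 4 comparisons, each row a Prrx1-loss group against WT of its type; blue is lower, red higher, a star marks an adjusted p under 0.05, and the colour stops at 4 in either direction. Stc1 is blue in both MEF rows and red in the wound and MMTV-CAF rows, and sgPrrx1 MMTV-CAFs have the strongest colours.

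The genes most like each member across the 21 cultures were found by Pearson's r of log2 CPM, for members whose group means spanned at least 4-fold, which left out Igf1r. The cultures fall into 7 groups of 3 that each share a fibroblast type and Prrx1 state, so r is a description of these groups. Igf1 was most like Acat2 (r = 0.96), Tcta (0.96) and Dhrs3 (0.95). Igf2 was most like Ctns (0.90), Spg21 (0.89) and Adora2b (0.89), lower values than those of any other member but Igfbp2. Igfbp3 had Adam19 (0.95) and Itga9 (0.95) among its 3 most similar genes. Igfbp5 was followed by Pcsk6 (0.97), Tnfsf15 (0.94) and Slc16a4 (0.92), and Pappa by Rnf10 (0.97), Etl4 (0.96) and Fat1 (0.95). Igfbp6 was closest to 1110051M20Rik (0.98), Rab7b (0.97) and Hoxb7 (0.97), and Igfbp7 to Chst12 (0.99), Ttc3 (0.97) and Trp53inp2 (0.96). The nearest gene to Igfbp4 was H2-Q4 (0.98), a member of a family of close copies whose reads may be shared, followed by the gene listed as MARCH9 (0.97) and Smyd3 (0.97). Igfbp2, with counts near 0, had Dad1 (0.78), Gjb2 (0.76) and Gria4 (0.76). No member was among the 3 genes most like another member.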

How the data were processed

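Poly(A) RNA of 21 mouse fibroblast cultures, 7 groups of 3, was sequenced with paired ends. Per the labels and the study's methods, the authors trimmed reads with Trimmomatic, aligned them to mm10 with STAR and counted reads per gene with HTSeq, and the values used here are those deposited counts (69588655 to 134790440 per culture), with gene symbols in capitals. The study's methods then name batch correction with ComBat-seq, after the mouse and the human alignments, without saying for which; if the deposited counts are its output, they are adjusted counts and their spread between cultures may differ from that of raw counts. Counts of 1 to 20 were even more often than odd (54.0%). Strand setting is not given, so antisense overlap was not resolved.

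Each Prrx1-loss group was tested against WT of its table with edgeR 4.0.16 (TMM, filterByExpr, quasi-likelihood F test) on 6 cultures. WT groups and differences of the sgPrrx1 effect were tested in a 7-group model of 21 cultures (15093 of 24447 genes kept). P-values were adjusted by Benjamini-Hochberg over all genes tested. CPM per kb used exonic lengths of a Gencode annotation. Promoter windows came from RefSeq GRCm38.p6; the transcribed end of 10 of 13 was found in a transcript of its gene. On simulated counts the fits were tested for recovery of known changes. The 10 genes, the pathway list, the marker lists and the naming rule (all 10 members, Prrx1, pathway genes changed at least 2-fold in 2 or more comparisons with WT, and Igf2r, Insr, Stc1, Stc2 and Pappa2 regardless) were chosen with earlier results of these data known. Alternatives were DESeq2 1.42.0, other scalings and filters, a replicate block, halved counts, one model for all cultures and leaving out each culture. Replicate numbers gave no clear pairing of the cultures. One gene that met the likeness rule is not reported here.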

Additional observations from a re-analysis of the deposited data

Results flagged for a closer look

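The sgPrrx1 effect on these genes differed between fibroblast types by an interaction test (edgeR, adjusted p under 0.05) in 25 cases, each given as the difference of 2 log2 fold changes. They were 8 of 10 members for wound minus MEF (55.6% of all genes), 8 for MMTV-CAF minus MEF (56.1%) and 9 for MMTV-CAF minus wound (63.0%). Type, strain and line cannot be told apart in these cases.

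The wound effect minus the MEF effect was -7.28 for Igf2, -1.41 for Igfbp3, -1.19 for Igfbp4, -1.80 for Igfbp6, 3.74 for Igfbp5, 1.32 for Igfbp7, 7.70 for Pappa and 0.22 for Igf1r. The MMTV-CAF effect minus the MEF effect was 2.46 for Igf1, -3.01 for Igf2, 0.41 for Igf1r, -13.47 for Igfbp3, 4.38 for Igfbp4, -1.76 for Igfbp5, -1.29 for Igfbp6 and -7.38 for Pappa. The MMTV-CAF effect minus the wound effect was 3.69 for Igf1, 4.26 for Igf2, 0.20 for Igf1r, -12.05 for Igfbp3, 5.57 for Igfbp4, -5.51 for Igfbp5, 0.51 for Igfbp6, -1.48 for Igfbp7 and -15.08 for Pappa.

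The large differences for Igfbp3 and Pappa that involve MMTV-CAFs rest on edited cultures with 3 counts in all, so their size depends on how the fit treats counts near 0. The difference for Igf1r between wound fibroblasts and MEFs passed only narrowly (adjusted p = 0.0326). It did not pass in 9 of 12 fits with a culture left out, nor with relative log expression scaling (0.0580). That between MMTV-CAFs and wound fibroblasts (adjusted p = 0.0420) was lost in 9 of 12 as well (adjusted p up to 0.0946), with upper-quartile scaling (0.0570), with no filter on low counts (0.0858) and with the replicate block (0.0555).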

How the results depend on the processing

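Of the numbers of members called in the 11 comparisons, 79 of 87 recomputed values under other settings stayed within 1.5-fold, as did all 84 values with a culture left out. Requiring at least 10 counts in every culture removes members near 0. It gave 5 changed members in sgPrrx1 wound fibroblasts, 4 between WT wound fibroblasts and WT MEFs, 5 between WT MMTV-CAFs and WT MEFs, 5 between WT MMTV-CAFs and WT wound fibroblasts, and 5, 4 and 5 for the effect differences of wound minus MEF, MMTV-CAF minus MEF and MMTV-CAF minus wound. The 2-fold rule gave 5 in sgPrrx1 wound fibroblasts. With a culture left out the numbers were 8 for mutant MEFs, 5 to 6 for sgPrrx1 MEFs, 7 to 9 for sgPrrx1 wound fibroblasts, 9 for sgPrrx1 MMTV-CAFs and 8 to 9 for sgPrrx1 against mutant MEFs. Over all genes the 2-fold rule left 3283 of 8155 calls in mutant MEFs, 1411 of 5764 in sgPrrx1 MEFs, 2179 of 10811 in sgPrrx1 wound fibroblasts, 3377 of 11552 in sgPrrx1 MMTV-CAFs and 2838 of 7513 between sgPrrx1 and mutant MEFs.

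Signs changed only for differences that had not passed. Igf1r in sgPrrx1 MEFs was -0.025 with upper-quartile scaling, -0.0045 with the filter of 10 counts, and -0.042 to 0.071 with a culture left out. Igfbp7 in sgPrrx1 wound fibroblasts was -0.0137 with upper-quartile scaling. Igfbp2 between WT MMTV-CAFs and WT wound fibroblasts was 0.29 with the replicate block and -0.69 to 0.58 with a culture left out, and its MMTV-CAF minus wound effect was -0.40 by DESeq2, -0.27 with the block and -0.58 to 0.69 with a culture left out. The cause was not tested, but Igfbp2 had at most 19 counts.

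The replicate numbers gave no clear pairing (r of same-numbered cultures from -0.56 to 0.32). The comparison of sgPrrx1 with WT MEFs came nearest to one, with r at 0.20, -0.07 and 0.32. There 2 of 3 edited cultures were most like the WT culture of the same number. The replicate block raised the calls in that comparison from 5764 to 6629 and lowered them in the other comparisons with WT. With the replicate block, 6457 genes were called in mutant MEFs, 6629 in sgPrrx1 MEFs, 10518 in sgPrrx1 wound fibroblasts and 11320 in sgPrrx1 MMTV-CAFs, and the members' block calls changed only for Igfbp3 in sgPrrx1 MEFs (adjusted p = 0.0667), Igf2 between WT MMTV-CAFs and WT MEFs (adjusted p = 0.0531) and Igf1r in the MMTV-CAF minus wound effect (adjusted p = 0.0555). With 3 cultures a group, exact permutation of a single comparison could not go below p = 0.1, so the calls rest on the spread that edgeR shares across genes.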
